A study of Homo sapiens with 6 samples.

Results

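Tubulins and their regulators were followed here as the gene group that a taxane acts on, in SKOV3 cells given extra miR-21. The group holds 10 genes. They are the beta tubulins TUBB, TUBB2A, TUBB2B, TUBB3, TUBB4B and TUBB6, the alpha tubulins TUBA1A and TUBA4A, and the microtubule regulators STMN1 and MAP4. Every probe set whose platform annotation names 1 of these genes alone was taken, which gave 21 of the 54613 probe sets of the array. A further 2 probe sets name a member together with another gene and were not used. The miR21 group was 3 arrays of SKOV3 cells that had received a miR21 precursor by transfection (5 nM, 24 h). The control group was 3 arrays of the same cells given a negative control precursor in its place, also for 24 h. No dose is recorded for the control precursor in the sample information used here. SKOV3 is an established human ovarian cancer cell line grown as a plain culture, and no taxane was among the treatments of these samples. The series title links miR21 to taxol resistance.

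Microtubules are hollow polymers of alpha and beta tubulin dimers that grow and shrink at their ends. Taxol, or paclitaxel, binds beta tubulin on the inner face of the polymer, stabilises it and holds dividing cells in mitosis. The beta tubulin isotypes differ mostly in their acidic C-terminal tails, and a high level of the class III isotype TUBB3 has been linked to taxane resistance in several carcinomas, ovarian cancer among them. STMN1, or stathmin, sequesters free dimers and promotes shrinkage, while MAP4 binds along the polymer and stabilises it.

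The agent was a precursor of miR-21, and its mature strand from RefSeq (GRCh38.p14, chr17:59841273-59841294, plus strand) is shown with the seed, bases 2 to 8, in capitals, since the seed is what pairs with a target transcript.
hsa-miR-21-5p: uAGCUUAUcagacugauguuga
Transcript sequences of the members were not used here, so no target site was looked for.

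The deposited values are MAS5 signals on a linear scale, and each array was scaled to a common trimmed mean. The median signal was 117, 55.2 and 56.6 on the miR21 arrays of replicate numbers 1, 2 and 3, and 125, 57.9 and 61.8 on the control arrays, so both arrays of number 1 stood apart from the rest. Arrays that share a number deviated from their group means in the same way, with correlations of 0.878, 0.643 and 0.630 over the probe sets tested. Values within a number are therefore given for most members. Numbers 2 and 3 were less distinct, since miR21 array 2 correlated with control array 3 at 0.349 and miR21 array 3 with control array 2 at 0.247. Pairs of number 1 with another number gave -0.704 to -0.608. In log2 signal, control array 2 was closer to miR21 array 3 (correlation 0.956) than to miR21 array 2 (0.949). Nothing in the sample labels says that the numbers are separate cultures, so every p-value rests on the spread among these arrays, which may be technical. The epithelial genes EPCAM, KRT7, KRT8, KRT18, KRT19 and CDH1, the Müllerian factor genes PAX8 and SOX17 and the ERBB2 gene were all above the signal filter described next. So were 3 markers of other cells, the neural gene MAP2 (signals of 1052 to 2688), the fibroblast gene COL1A1 (108 to 824) and the endothelial gene PECAM1 (22.3 to 483). PTPRC, DCN, PDGFRB and GFAP, also markers of other cells, were below it. Passing the filter therefore does not by itself mark a cell type. WT1, with signals of 41.6 to 71.5 over the 6 arrays, and MUC16, with 3.12 to 27.3, were below it, although both are used as markers of serous ovarian cancer.

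Most tubulin and regulator probe sets gave a lower signal with miR21, and none passed the test. Probe sets were tested if their mean log2 signal reached the median of all, a signal of 65.5, and 19 of the 21 did. Of these 19, 18 (94.7%) had a mean log2 difference, miR21 minus control, below 0, against 54.1% of all 27307 probe sets tested. The exception was the dim probe set of TUBB2B. The median difference of the 19 was -0.47 and that of all probe sets tested was -0.037. Among probe sets in the upper quartile of signal the members were 18, all below 0 with a median of -0.47, against 50.4% below 0 and a median of -0.0029 for all 13654. Several of the 19 read the same gene or a near-identical one, so they are not independent of each other. The members were also chosen with earlier results of these data known. Their shares and medians beside those of all probe sets are therefore a description and not a test. In bulk RNA a lower share of cells that express a gene and less of its RNA per cell cannot be told apart.

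In limma with Benjamini-Hochberg adjustment at 0.05 over the whole table, 0 of the 19 were called, against a background of 0% (0 of 27307). At an unadjusted p under 0.05 limma held 0 of the 19 and 533 of all, 1.95%. With the replicate number as a block the adjusted test again called 0 of the 19, against 0.0183% of all (5 probe sets, all higher with miR21). At an unadjusted p under 0.05 that block fit held 12 of the 19, all lower with miR21, where the background of lower probe sets was 9.58%. The groups did not overlap, with all 3 miR21 arrays below all 3 control arrays, for 2 of the 19 (TUBB and STMN1), against 3.47% of all. A difference below 0 in all 3 replicate numbers was found for 14 of the 19, against 21.3% of all.

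**Figure D1:**
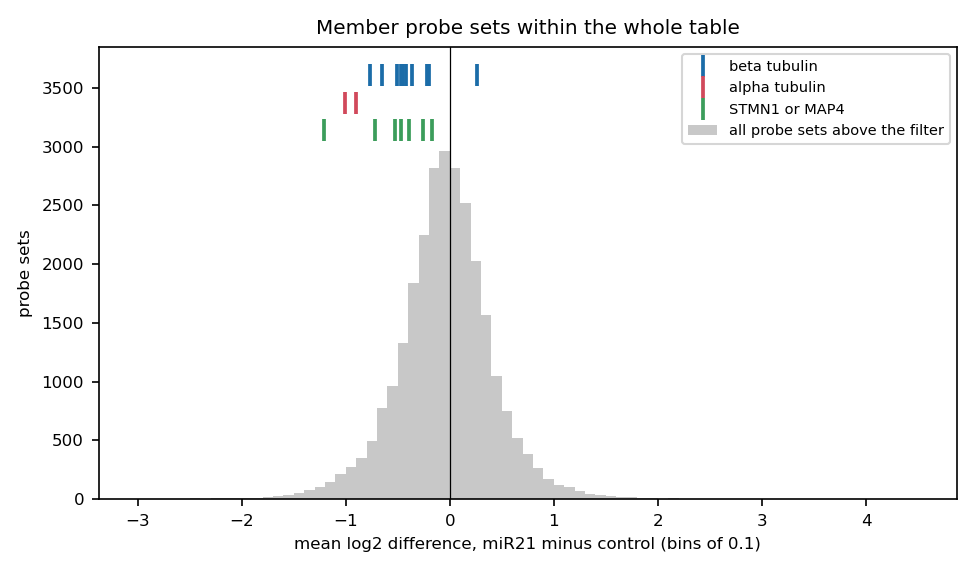
Histogram of the mean log2 difference, miR21 minus control, over the 27307 probe sets tested (grey bars, bins of 0.1), with a tick for each of the 19 member probe sets above the filter in rows by role. All ticks but that of TUBB2B at 0.26 lie left of 0, between -1.21 and -0.17.

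The shift was seen mainly in numbers 1 and 2. The median difference of the 19 was -0.67 in number 1, -0.45 in number 2 and -0.16 in number 3, beside -0.046, -0.045 and -0.0052 for all probe sets tested. Of the 19, 18 were below 0 in number 1, 17 in number 2 and 15 in number 3, and over the whole table the shares were 53.6%, 53.1% and 50.6%. Leaving out both arrays of number 3, the block fit in limma called 13 of the 19, all lower, against 14.8% of all probe sets called lower. Only 2 pairs entered that fit, which left 1 residual degree of freedom. Its p-values rest on a spread that limma estimated over probe sets of similar signal, and not on each probe set's own. The MAP4 probe set 212567_s_at, for example, had an SE of 0.21 there, though it differed by -3.02 in number 1 and -0.49 in number 2. The same fit called 0 of the 19 without number 1 (0.0989% of all called lower) and 0 without number 2 (0% of all).

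The level of the members also differed between arrays of the same group. Among the control arrays 13 of the 19 were brightest on number 3, and among the miR21 arrays 16 of the 19 were. Set against each probe set's mean over the 6 arrays, the median of the 19 was -0.83, -0.31 and 0.42 on miR21 arrays 1, 2 and 3, and -0.06, 0.09 and 0.53 on control arrays 1, 2 and 3. The same medians for all probe sets tested were 0.10, -0.08 and -0.05 on the miR21 arrays, and 0.16, -0.009 and -0.06 on the control arrays. For 15 of the 19, the signals of the 3 control arrays spanned a wider fold than the one between the groups. The median log2 range over the control arrays was 0.90 for the 19 and 0.99 for all probe sets tested, and over the miR21 arrays 1.37 and 1.07. The counts of 13, 16 and 15 are not given for all probe sets. Nor are these levels given for other probe sets as bright as the members, so a pattern shared by bright probe sets cannot be told apart. The median of the members moved to -0.14 without miR21 array 1 and to -0.15 without control array 3, with 16 of the 19 below 0 in both cases. It moved to -0.81 without miR21 array 3.

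**Figure D2:**
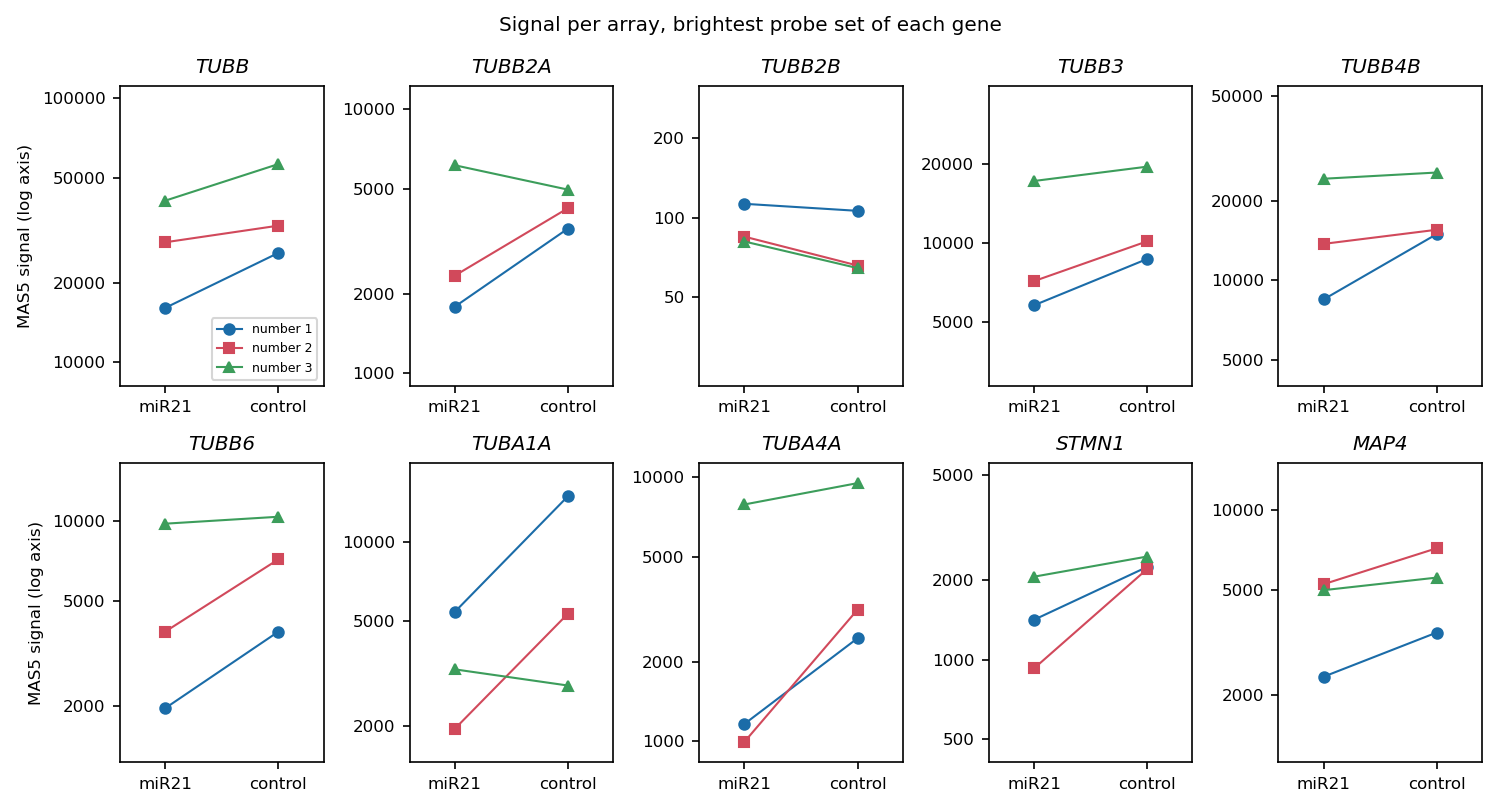
MAS5 signal (log axis) on each array for the probe set of highest mean signal of each gene, miR21 at the left and control at the right of each panel, with a line joining the arrays of a replicate number. All panels span the same fold range, and lines run up to the right for numbers 1 and 2 in every gene but TUBB2B. In number 3, TUBB2A and TUBA1A join TUBB2B in being higher with miR21.

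TUBB encodes the class I beta tubulin, the main isotype of most cells, and was read by 3 probe sets. The probe set 212320_at had signals of 7975, 4759 and 10984 on the miR21 arrays of numbers 1, 2 and 3, against 15962, 11595 and 11182 on the control arrays. Every miR21 value lay below every control value, though the number 3 arrays were close to each other. The means were 7906 ± 3113 with miR21 and 12913 ± 2649 in control (SD, n = 3 each). On the log2 scale the difference was -0.77 (SE 0.36), a geometric mean 1.71-fold lower with miR21. Without miR21 array 2 it was -0.45. It did not pass limma (adjusted p = 0.999994, and adjusted p = 0.179 with the block). The exact permutation p (two-sided) was 0.1, the smallest that 3 arrays against 3 can give.

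The other TUBB probe sets followed another order across the arrays. 211714_x_at had 16092, 28517 and 41002 on the miR21 arrays, against 25992, 32968 and 56422 on the control arrays. It was lower with miR21 within each number, yet the groups overlapped, since number 3 was the brightest in both. Its log2 difference was -0.45 (SE 0.43), with -0.69, -0.21 and -0.46 in numbers 1, 2 and 3. Without miR21 array 1 it was -0.091, and without control array 3 it was -0.14. 209026_x_at differed by -0.47, with -0.65, -0.34 and -0.43, and by -0.13 without miR21 array 1. So the 3 probe sets of TUBB shared the sign in every number, while 212320_at had its difference in numbers 1 and 2 (-1.0 and -1.28) and almost none in number 3 (-0.03). In the array maker's naming, the suffix _x_at marks a probe set with probes that can also match other sequences. Beta tubulin transcripts are very alike, so a value of such a probe set may be shared between isotypes and is uncertain as a value of 1 gene.

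TUBB2A and TUBB2B encode the class II beta tubulins from neighbouring genes of chromosome 6. TUBB2A was read by 204141_at, with 1790, 2347 and 6143 on the miR21 arrays, against 3537, 4226 and 4967 on the control arrays. It was lower with miR21 in numbers 1 and 2 (-0.98 and -0.85) and higher in number 3 (0.31). Its mean difference was -0.51 (SE 0.47), and the exact permutation p was 0.4. It was -0.15 without miR21 array 1 and -1.04 without miR21 array 3, so single arrays set its size. TUBB2B, which is best known from developing neurons, was read by 214023_x_at alone, so its value may be shared between isotypes. It had signals of 113, 84.8 and 81.3 with miR21, against 106, 65.9 and 64.5 in control. These stand close to the filter of 65.5, and the difference of 0.26 (SE 0.49) was the only one above 0 among the 19. It was above 0 in all 3 numbers, at 0.09, 0.36 and 0.33, and lay between 0.11 and 0.50 with 1 array left out. For all probe sets tested, the share higher in all 3 numbers was 18%.

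TUBB3 encodes the class III isotype, and its 2 probe sets are both of the _x_at kind. 213476_x_at had 5810, 7173 and 17180 on the miR21 arrays, against 8700, 10150 and 19468 on the control arrays. The number 3 arrays were the brightest of both groups, and each miR21 array lay below the control array of its number. The log2 difference was -0.42 (SE 0.49), with -0.58, -0.50 and -0.18 in numbers 1, 2 and 3. It was -0.071 without control array 3 and -0.11 without miR21 array 1. 202154_x_at had 3231, 2365 and 5104 with miR21, against 4115, 2779 and 5198 in control. Its difference of -0.20 (SE 0.39), with -0.35, -0.23 and -0.03 in the 3 numbers, was smaller. Without miR21 array 2 it was 0.057 and without control array 3 it was 0.0041, so its direction rests on single arrays. Neither passed limma, with adjusted p = 0.217 and 0.487 under the block.

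TUBB4B, a class IV beta tubulin found in most tissues, was read by 2 further _x_at probe sets. 208977_x_at had 8453, 13721 and 24220 on the miR21 arrays, against 14945, 15521 and 25570 on the control arrays. The gap was widest in number 1 (-0.82) and small in numbers 2 and 3 (-0.18 and -0.08). The mean difference was -0.36 (SE 0.43), and it was 0.010 without miR21 array 1. 213726_x_at differed by -0.22 (SE 0.44), with -0.39, -0.27 and 0.01, and turned to 0.093 without miR21 array 1 and 0.078 without control array 3.

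TUBB6, the class V beta tubulin, was read by 209191_at alone. Its signals were 1955, 3814 and 9778 on the miR21 arrays, against 3813, 7164 and 10387 on the control arrays. The miR21 array was at about a level with its control in number 3 and well below it in the other two. The log2 difference was -0.65 (SE 0.62), with -0.96, -0.91 and -0.09 in numbers 1, 2 and 3. With the replicate block the SE was 0.19 and limma gave an adjusted p of 0.176. Without miR21 array 1 the difference was -0.11.

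Over the 10 beta tubulin probe sets above the filter, 9 differed by less than 0, with a median of -0.44. The 3 without the _x_at suffix (TUBB, TUBB2A and TUBB6) had a median of -0.65, and the 7 with it had a median of -0.36. By replicate number the medians were -0.98, -0.91 and -0.03 for the 3, and -0.58, -0.23 and -0.08 for the 7. This split was made after the values were seen and is given with no test. Signals of different probe sets cannot be compared, so the data do not rank the isotypes by abundance.

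**Figure D3:**
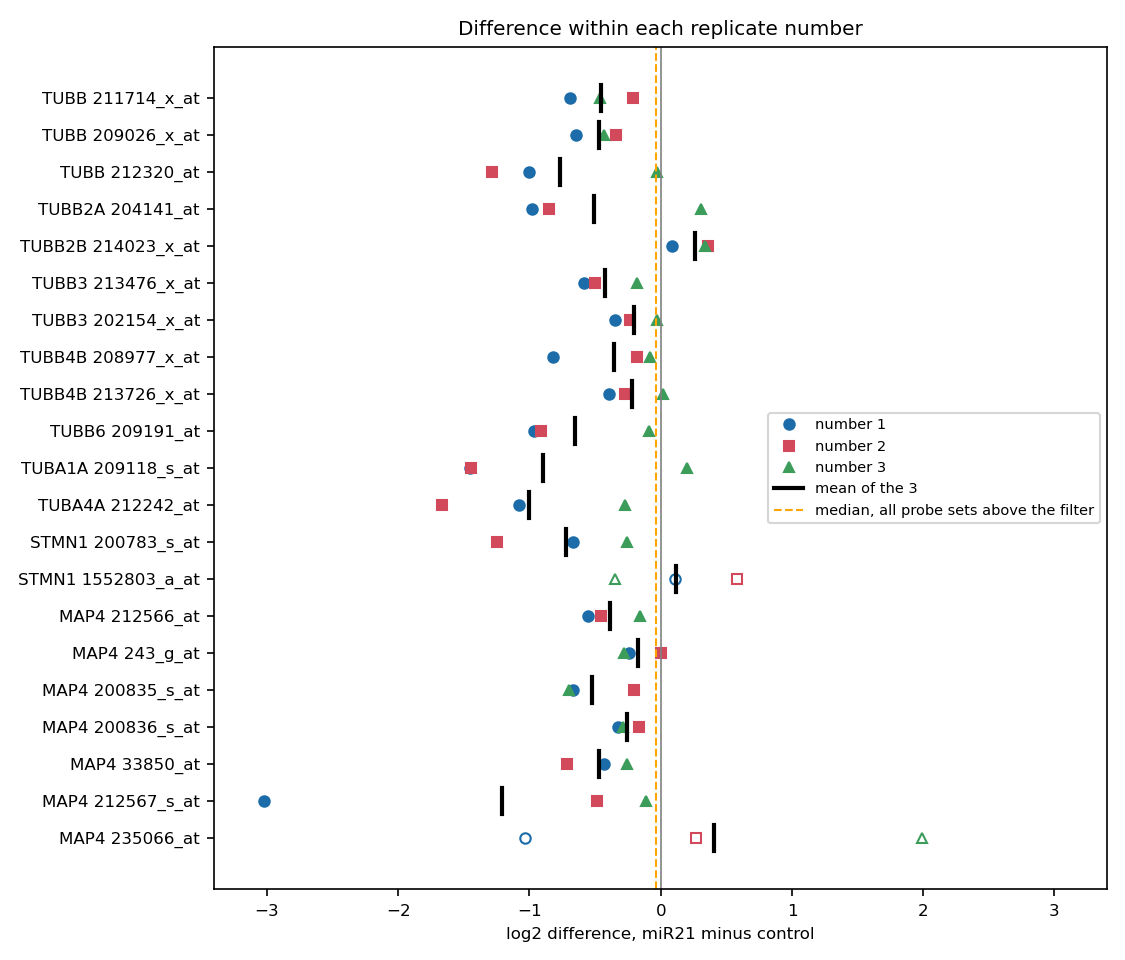
Log2 difference, miR21 minus control, within replicate numbers 1 (circles), 2 (squares) and 3 (triangles) for all 21 member probe sets, with their mean as a black bar and the median of all tested probe sets as a dashed line. Open symbols are the 2 probe sets below the filter. Triangles mostly lie nearer to 0 than circles and squares, and the circle of a MAP4 probe set at -3.02 stands alone.

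TUBA4A and TUBA1A had larger mean differences than any beta tubulin probe set, along with wide spreads. TUBA4A, read by 212242_at, had 1162, 994 and 7882 on the miR21 arrays, against 2454, 3149 and 9495 on the control arrays. Number 3 was several times brighter than the others in both groups, and the control arrays alone spanned 3.87-fold. The log2 difference was -1.0 (SE 0.86), a geometric mean 2.01-fold lower with miR21, with -1.08, -1.66 and -0.27 in numbers 1, 2 and 3. With the replicate block the SE was 0.24, and TUBA4A had the smallest block p of the 19 (unadjusted p = 0.00335, adjusted p = 0.142 in limma). Without control array 3 the difference was -0.41, and without miR21 array 3 it was -1.96.

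TUBA1A, an alpha tubulin with a known part in neuronal development, was read by 209118_s_at. Its signals were 5422, 1955 and 3281 on the miR21 arrays, against 14869, 5336 and 2850 on the control arrays. Unlike most members, it was brightest on number 1 in both groups, and the control arrays spanned 5.22-fold. The differences within numbers 1 and 2 were nearly equal (-1.46 and -1.45), and number 3 went the other way (0.20). Without control array 1 the mean difference was -0.26, and without control array 3 it was -1.45. With all arrays the mean was -0.90 (SE 0.64), with an exact permutation p of 0.5 and an adjusted p of 0.208 in limma with the block. Neither alpha tubulin was called in limma, and neither were TUBA1B and TUBA1C, the other alpha tubulins above the filter. TUBA1B differed by -0.33 and TUBA1C by -0.13, with 0.39 for TUBA1C in number 2. Both were read by _x_at probe sets (212639_x_at and 209251_x_at), so these values may also be shared with other transcripts.

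Promoter sequence was compared for the 2 alpha tubulins and for the class II pair, whose mean differences had opposite signs. That contrast is uncertain, at -0.51 (SE 0.47) for TUBB2A and 0.26 (SE 0.49) for TUBB2B, and any link of the sequences to it was not tested. TUBB2B was read by a dim _x_at probe set, so opposite signs at the level of the genes are not established. Each of the 4 genes has a single annotated start in the RefSeq table, as has TUBB4B, which is not shown. The 250 bases before the start are given 5′ to 3′ on the gene's strand (GRCh38.p14, minus strand for all 4), with the CCAAT box, the TATA box letters TATAAA and the GC box letters GGGCGG in capitals on either strand.
TUBA1A, chr12:49189081-49189330: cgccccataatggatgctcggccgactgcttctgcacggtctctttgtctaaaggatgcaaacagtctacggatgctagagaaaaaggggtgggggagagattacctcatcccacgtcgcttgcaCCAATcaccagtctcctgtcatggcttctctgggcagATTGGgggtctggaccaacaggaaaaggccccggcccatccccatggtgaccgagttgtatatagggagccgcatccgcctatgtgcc
TUBA4A, chr2:219253919-219254168: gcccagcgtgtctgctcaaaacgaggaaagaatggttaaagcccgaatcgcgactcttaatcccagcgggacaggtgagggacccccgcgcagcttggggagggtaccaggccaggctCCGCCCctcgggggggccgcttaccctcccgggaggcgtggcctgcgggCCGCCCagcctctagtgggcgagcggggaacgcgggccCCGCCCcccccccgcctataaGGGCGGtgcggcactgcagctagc
TUBB2A, chr6:3157545-3157794: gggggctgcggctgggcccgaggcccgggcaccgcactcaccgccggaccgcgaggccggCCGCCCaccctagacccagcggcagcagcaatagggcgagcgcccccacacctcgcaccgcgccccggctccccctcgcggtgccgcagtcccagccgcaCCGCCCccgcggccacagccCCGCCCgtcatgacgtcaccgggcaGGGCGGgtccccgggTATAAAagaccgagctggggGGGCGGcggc
TUBB2B, chr6:3227654-3227903: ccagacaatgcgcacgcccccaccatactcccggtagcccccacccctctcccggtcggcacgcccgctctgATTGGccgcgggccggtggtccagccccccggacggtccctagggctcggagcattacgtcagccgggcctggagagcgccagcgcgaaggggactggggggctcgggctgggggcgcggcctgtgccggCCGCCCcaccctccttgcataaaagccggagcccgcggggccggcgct
The pairs differ in these letters. TUBA1A holds 2 CCAAT and 0 GGGCGG matches, and TUBA4A 0 and 4. TUBB2A holds 1 TATAAA and 5 GGGCGG matches, and TUBB2B holds 1 CCAAT and 1 GGGCGG match. Over all 16 windows of the 10 genes, CCAAT on either strand occurred in 50% against 32% of 35116 windows in the table, TATAAA in 6.25% against 10.7%, and GGGCGG in 62.5% against 42.6%. Matches were allowed to overlap, and a match is only a description of the sequence.

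STMN1, whose protein takes up free tubulin dimers, was read above the filter by 200783_s_at. Its signals were 1416, 927 and 2062 on the miR21 arrays, against 2246, 2205 and 2459 on the control arrays. The control arrays were the closest of any member, at 1.11-fold from lowest to highest, and all 3 miR21 arrays lay below them. The means were 1468 ± 570 with miR21 and 2303 ± 136 in control (SD, n = 3 each). The log2 difference was -0.72 (SE 0.35), a geometric mean 1.65-fold lower with miR21, with -0.67, -1.25 and -0.25 in numbers 1, 2 and 3. It did not pass limma without the block or with it (adjusted p = 0.164), and the exact permutation p was 0.1. Leaving out 1 array at a time gave differences between -1.01 and -0.43. A second STMN1 probe set, 1552803_a_at, was below the filter and differed by 0.11, with 0.11, 0.58 and -0.35 in the 3 numbers.

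MAP4, which stabilises microtubules in non-neuronal cells, was read by 7 probe sets, 6 of them above the filter. All 6 differed by less than 0, from -1.21 to -0.17. The brightest, 212566_at, had 2343, 5250 and 4984 on the miR21 arrays, against 3444, 7185 and 5561 on the control arrays. Each miR21 array lay below the control of its number, and the log2 difference was -0.39 (SE 0.43), with -0.56, -0.45 and -0.16. It was -0.013 without miR21 array 1 and -0.15 without control array 2, so its size rests on single arrays. 33850_at had 583, 672 and 799 with miR21, against 788, 1102 and 954 in control, with only miR21 array 3 above the lowest control array, and differed by -0.47 (SE 0.30), with -0.43, -0.71 and -0.26 in numbers 1, 2 and 3. 243_g_at showed the smallest difference of the 6, -0.17 (SE 0.28), and 0.0018 in number 2.

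The lowest MAP4 value came from 1 array. 212567_s_at had 107, 840 and 867 on the miR21 arrays, against 865, 1178 and 936 on the control arrays. The 107 on miR21 array 1 set a difference of -3.02 in that number, beside -0.49 and -0.11 in numbers 2 and 3. The mean difference was -1.21 (SE 0.78), and it was -0.21 without that array. The remaining tested ones, 200835_s_at and 200836_s_at, differed by -0.52 and -0.26 and were below 0 in all 3 numbers. Without control array 3 these differences were -0.025 and -0.055, and that of 243_g_at was -0.021. The MAP4 probe set below the filter, 235066_at, had signals of 7.54 to 9.46 with miR21 and 1.90 to 17.8 in control.

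Other genes that build, fold, bind or modify microtubules lay on both sides of 0. Of 94 such genes in 10 lists, 79 were measured above the filter with 1 probe set per gene, the brightest. In limma 0 were called higher and 0 lower, without or with the block, against 0% and 0.0183% of all probe sets. Their median difference was 0.02, and 37 of the 79 (46.8%) lay below 0, against 54.1% of all probe sets tested. Of the 79, 19 were lower and 17 higher in all 3 numbers, against 21.3% and 18% of all. The lists, like the members, were chosen with earlier results of these data known, so the contrast between them is not a test.

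The folding machinery of tubulin had a median of 0.14 over 18 genes, with 6 below 0. The prefoldin subunit gene PFDN2 differed by 0.67 (SE 0.46) and TBCC, a cofactor in the assembly of the tubulin dimer, by 0.49 (SE 0.33). PFDN2 was above 0 in numbers 1 and 2 (0.90 and 1.16) and at -0.05 in number 3. The 11 other proteins that bind the microtubule lattice had a median of 0.12, with MAP1B at 0.62 (1.00, 0.98 and -0.13 in numbers 1, 2 and 3) and DCLK1 at 0.48. The 4 kinases of the MARK family, which phosphorylate such proteins and release them from the polymer, had a median of 0.25, with MARK4 at 0.59 and MARK3 at 0.44, though MARK3 was at -0.11 in number 3. Plus-end and growth proteins stood at a median of 0.02 over 9 genes, with the stabiliser gene CLASP2 at 0.32. The end-binding gene MAPRE3 was at 0.46 (SE 0.62), with 1.52, 0.41 and -0.56 in numbers 1, 2 and 3. Its signals were mostly close to the filter, at 195, 78.8 and 51.7 with miR21, against 67.7, 59.5 and 76.4 in control. The only other stathmin above the filter, STMN3, differed by 0.04, and the only other beta tubulin, TUBB4A, by -0.09.

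A median below 0 was found in 5 of the 10 lists. The 8 severing and depolymerising enzymes had a median of -0.26, with -0.42, -0.56 and 0.19 in numbers 1, 2 and 3. FIGNL1, which is related to the severing enzyme fidgetin, differed by -0.73 and the fidgetin gene FIGN by -0.65, and in number 3 they were at 0.14 and 0.53. The 13 tubulin-modifying enzymes had a median of -0.09, with the polyglutamylase gene TTLL7 at -1.01 (SE 0.48) and the deglutamylase gene AGBL5 at -0.77 (SE 0.42). In number 3 TTLL7 was at -0.28 and AGBL5 at 0.14. The signals of TTLL7 were low, at 70.0, 81.6 and 84.9 with miR21, against 156, 248 and 103 in control. Gamma, delta and epsilon tubulins and the gamma tubulin ring had a median of -0.02 over 12 genes, with TUBGCP6 at -0.46 and TUBD1 at -0.48. TUBE1, the epsilon tubulin gene, was chosen with its values in view and not by the rule. It lay far from the others at 1.62, with 0.90, 2.19 and 1.77 in numbers 1, 2 and 3. Its miR21 and control arrays overlapped, and limma did not call it without or with the block. Its unadjusted p in limma without the block was above those of TUBGCP6 and TUBD1 (0.233 and 0.336).

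**Figure D4:**
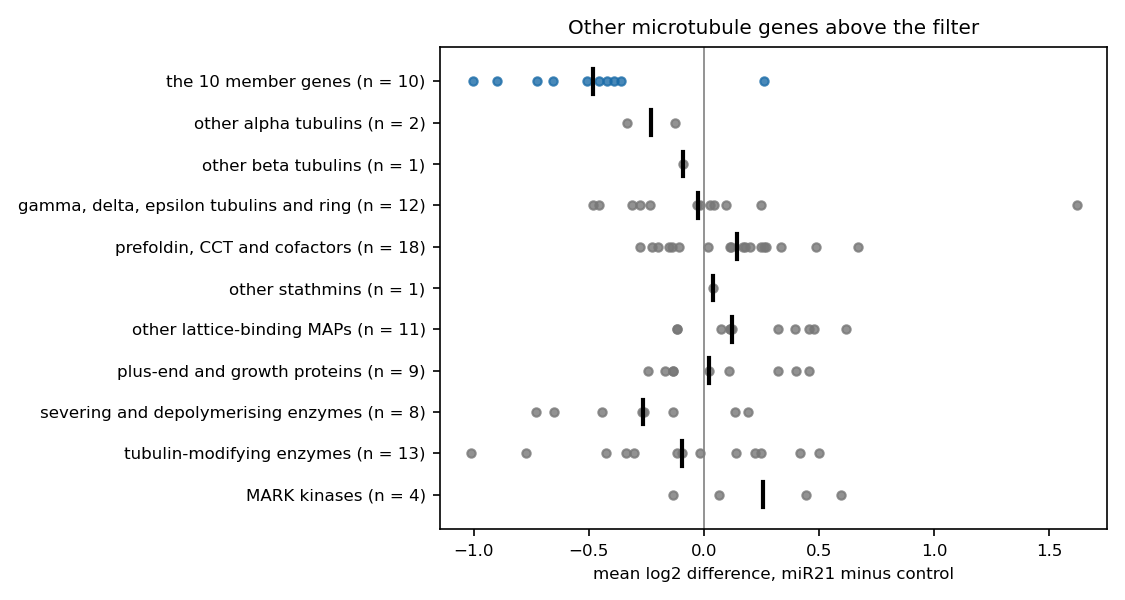
Mean log2 difference, miR21 minus control, of each gene above the filter (points, brightest probe set of the gene) for the 10 member genes at the top and the 10 lists of other microtubule genes below, with the median of each row as a black bar. The member genes have a median of -0.48, and the medians of the lists lie between -0.26 and 0.25.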

How the data were processed

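Per the submitters' processing notes the authors made MAS5 signals, and the version and settings were not given in the sources used here. These deposited intensity signals are linear and all above 0. Each array's mean after trimming 2% at both ends is between 500.06 and 500.08, which hides any shift that most genes share. Of 54675 probe sets, 62 controls were left out. Probe sets were named from the platform annotation, with 41091 naming 1 gene, 1801 several and 11721 none, and 41037 Entrez identifiers were found in a RefSeq gene table of GRCh38.p14. Probe sets whose mean log2 signal over the 6 arrays reached 6.03 were kept (27307).

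The 2 groups were compared on log2 signals, with no pseudocount, by limma 3.58.1 (R 4.3.3) with lmFit and trended eBayes, adjusted by Benjamini-Hochberg over the whole table, with exact two-sided permutation tests for single probe sets. Replicate numbers were read from the sample titles. Arrays of the same number correlated in their deviations at 0.878, 0.643 and 0.630, so the fit with the number as a block is given beside the fit without the block. Deviations in numbers 2 and 3 also correlated across these numbers, at 0.349 and 0.247. The number of arrays limits the precision. In simulated data the limma fits without and with the block were checked for the size of the differences they recovered. Alternatives were median centring, quantile normalization, 16 added to each signal, other filters, no variance trend, array weights, 1 probe set per gene, only probe sets of 1 gene, the block, and arrays left out. The members and gene lists were chosen with earlier results of these data known. Named were all members and, of each list, the 2 genes of smallest p.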

Additional observations from a re-analysis of the deposited data

How the results depend on the processing

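The count of probe sets called over the whole table was 0 in limma and stayed 0 in every alternative without the block. The replicate block gave 5 with the filter and 5 without it, 56 without both arrays of number 1, 0 without number 2 and 7243 without number 3. Of the members, 0 were called in each of these fits except the block fit without number 3, which called 13. The cause was not tested, and each of the fits without a number rests on 2 pairs. Without number 3, the p-values of the block fit rest on a spread shared between probe sets. The median difference of the members was -0.47, and from -0.81 to -0.14 with 1 array left out. It stayed between -0.50 and -0.26 in the other alternatives, and 16 to 18 members lay below 0 in all of these except the alternative with 1 probe set per gene (9 of 10). The count below 0 was added after seeing the data. Median centring moved the share of all probe sets below 0 to 43.3%, against 54.1%, and the members' median to -0.37. With array weights the TUBB3 probe set 202154_x_at turned to 0.077. With 1 array left out it ranged from -0.50 to 0.057, and the TUBB4B probe sets ranged from -0.75 to 0.010 (208977_x_at) and from -0.63 to 0.093 (213726_x_at). No other tested member probe set changed sign. Averaging a gene's probe sets gave STMN1 a difference of -0.30 in place of -0.72 and left each gene's sign as it was.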
